A study of Mus musculus with 8 samples.

Results

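Apln cells were blood endothelial cells of a mouse melanoma that were chosen by a joint score of the genes Apln, Tnfrsf9 and Kit. Relative to all scored cells, they scored higher for these genes than for the markers of any other vessel class, and above a threshold. They numbered 552 of the 3170 cells of the blood endothelial sort that were scored, or 17.4% (exact Clopper-Pearson interval 16.1 to 18.8%), and 7635 cells were deposited in all. The tumor was the MT-ret melanoma, grown from fragments placed on the flank of 10 mice of the strain C57BL/6N. Blood endothelium (the BEC sort) and lymphatic endothelium (the LEC sort) were separated by fluorescence-activated sorting and profiled with the 10x Chromium 3′ v2 chemistry, which counts captured RNA molecules by unique molecular identifiers (UMIs). Nothing but the vessel type sorted for differed between the 2 sorts by the labels. The labels list no treatment, and no tumor-free vessel was part of the data used here. The BEC sort (3228 cells) and the LEC sort (4407 cells) each came from 4 libraries that the cell names do not tell apart, so each sort was 1 sample from pooled tumors, with no replicate and no test.

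Apelin, the product of Apln, is a secreted peptide that acts on the receptor Aplnr, and its transcript marks the tip cells that lead a growing vessel sprout. Tip cells extend filopodia toward vascular endothelial growth factor (VEGF), while the stalk cells behind them divide and form the lumen, and Notch signalling between neighbours keeps the states apart. Low oxygen stabilises hypoxia-inducible factors, which raise transcription of angiogenic factors, glucose transport and glycolytic enzymes. In tumors these programmes are known to run at the same time in parts of the vessel wall.

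The cells were chosen by 3 steps. Cells with 20 or more summed UMIs of the pigment genes Dct, Tyrp1, Pmel and Tyr (22 cells) or of the stromal genes Col3a1 and Rgs5 (36 cells) were set aside, 58 in all. Each remaining cell was scored for 5 marker sets, as the mean natural log of 1 plus UMIs per 10000, and scores were turned into z values over the 3170 cells. The sets were Apln, Tnfrsf9 and Kit; Npr3, Vegfc and Dkk2; Aplnr and Ramp3; the arterial Gja5, Sema3g and Stmn2; and the venous Ackr1, Selp and Vwf. A cell was an Apln cell when the first set had its highest z and that z was over 0.5. The score was a range and not a gap, as the plot of scores shows. The lowest Apln cell had a z of 0.503 and the highest cell kept out by the threshold 0.4998, with 39 Apln cells up to 0.6 and 32 cells between 0.4 and 0.5 that fell outside. A further 207 cells passed 0.5 but scored higher on another set. Among the other BEC cells 549 were Npr3 Vegfc Dkk2 cells, 736 Aplnr Ramp3 cells, 309 Gja5 arterial cells, 346 Ackr1 venous cells and 678 passed for no set.

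**Figure D1:**
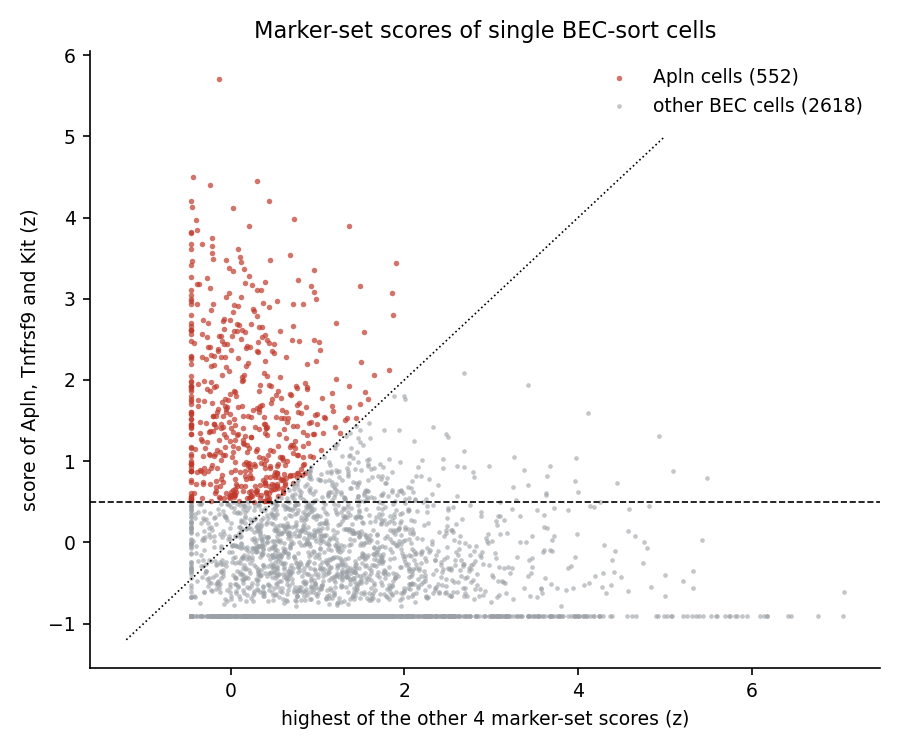
z score of Apln, Tnfrsf9 and Kit (vertical axis) against the highest of the other 4 z scores (horizontal axis), 1 point per cell, for 552 Apln cells and 2618 other BEC cells. The dashed line is the threshold of 0.5 and the dotted line marks equal scores. The cells run on across both lines without a gap, and the row at the bottom holds cells with no UMI of the 3 genes.

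The 3 genes that chose the cells are given as a description. UMIs were summed over the cells of a class and expressed as counts per 1000000 UMIs (CPM), with exact Poisson or conditional binomial intervals at the 95% level that cover counting error only. Apln (GRCm38 chromosome X, from 48025146 to 48034853 on the minus strand) stood at 789 CPM in Apln cells and 118 CPM in other BEC cells. Tnfrsf9 (chromosome 4, 150914562 to 150946102, plus strand), a costimulatory receptor best known from activated T cells, was at 502 CPM in Apln cells and 43.0 CPM in other BEC cells. Kit (chromosome 5, 75574916 to 75656722, plus strand), the stem cell factor receptor, was at 56.1 CPM in Apln cells and 9.32 CPM in other BEC cells. The genes were not evenly shared out among Apln cells. UMIs of all 3 genes were found in 151 Apln cells (27.4%), of Apln and Tnfrsf9 without Kit in 225, of Apln and Kit without Tnfrsf9 in 78 and of Apln alone in 73. Apln cells without an Apln UMI had Tnfrsf9 alone (13 cells) or Tnfrsf9 and Kit (12 cells), and none had UMIs of Kit alone.

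Free RNA could put UMIs of these genes into cells that do not express them, and depth differed between classes. Shares were also taken after every cell was thinned to 5000 UMIs, which evens depth and does not remove free RNA. Apln then had a UMI in 85.5% of Apln cells and 28.9% of other BEC cells, against 0.858% of lymphatic cells of the LEC sort (95.5%, 47.6% and 1.29% before thinning). Tnfrsf9 had one in 58.7% of Apln cells, 11% of other BEC cells and 1.61% of lymphatic cells (72.6%, 23.7% and 2.14% before thinning). For Kit the shares were 20.5% of Apln cells, 4.01% of other BEC cells and 0.375% of lymphatic cells (43.7%, 9.17% and 0.697% before thinning). Median depths before thinning were 22066, 18930.5 and 10710.5 UMIs. The cells set aside from the BEC sort itself gave shares closer to those of other BEC cells. After thinning, 22.7% of the 22 pigment-bound cells had Apln, 9.09% Tnfrsf9 and 0% Kit, and 11.1% of the 36 stromal-bound cells had Apln, 11.1% Tnfrsf9 and 5.56% Kit, at median depths of 33532 and 16712 UMIs. The Tnfrsf9 and Kit shares of other BEC cells were thus not above those of the 36 stromal-bound cells, but above those of the 22 pigment-bound cells. Summed levels of Tnfrsf9 were 110 CPM in stromal-bound, 9.39 CPM in pigment-bound and 43.0 CPM in other BEC cells. Those of Kit were 16.5, 4.69 and 9.32 CPM. The stromal-bound levels rest on 87 UMIs of Tnfrsf9 and 13 of Kit. Single other BEC cells held up to 48 UMIs of Tnfrsf9 and 8 of Kit. How much of these 2 shares is free RNA was not tested.

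Apln cells were deeper than other BEC cells. Their median was 22066 UMIs (7071 to 94962) and 3004 genes per cell, against 18930.5 UMIs (6968 to 99171) and 2807.5 genes in other BEC cells, and 1768.5 against 1750 genes once thinned to 5000 UMIs. The median mitochondrial share was 3.28% in Apln cells and 3.43% in other BEC cells, with under 1% in 7.25% and 4.13% of cells. Cells above the 95th percentile of UMIs were 63 Apln cells (11.4%) and 96 other BEC cells (3.67%). A z over 0.5 on a further set was found in 144 Apln cells (26.1%) and in 39.8% of the 1940 cells of the other 4 sets; no doublets were removed, and their part in the results was not tested. The BEC and LEC sorts shared 34 cell barcodes, 4 of them of Apln cells. Without the cells carrying them, 49 genes were at least 2-fold higher in Apln cells and 54 at least 2-fold lower, against 48 and 53 with them.

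Pgf, Adm, Fhl2 and Angptl4 were furthest above other BEC cells in the Apln cells. With a minimum of 50 CPM in the higher class and a pseudocount of 1 CPM, 48 of 3184 genes (1.51%) passed a 2-fold higher level in Apln cells and 53 (1.66%) a 2-fold lower one. The cells were chosen within these same cells, so the counts describe and do not test. Of the higher genes 45 were not used for scoring, and the level of each of the 45 was higher in Apln cells than in any of the 5 other classes. For 18 of them the level was at least 2 times that of every other class. The 45 were picked as 2-fold above the pool of these classes, so both counts follow in part from the choice. The same counts over all genes are not given here.

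The gene furthest apart was Pgf, placental growth factor, a ligand of the VEGF receptor Flt1 (chromosome 12, 85166635 to 85177790, minus strand). It was at 207 CPM in Apln cells and 15.3 CPM in other BEC cells, 13.5-fold higher (12.5 to 14.6). Its UMIs were uneven, since the median Apln cell had none, the upper quartile was 62.6 CPM and the highest cell 5566 CPM with 6.84% of all Pgf UMIs of the class. Adm, the vasoactive peptide adrenomedullin (chromosome 7, 110627661 to 110629820, plus strand), was at 477 CPM in Apln cells and 60.9 CPM in other BEC cells, 7.83-fold higher (7.51 to 8.16). The median Apln cell had 220 CPM of Adm and the highest 7413 CPM, while the median of other BEC cells was 0. Angptl4, a secreted inhibitor of lipoprotein lipase, was at 277 CPM in Apln cells and 48.1 CPM in other BEC cells, 5.77-fold higher (5.49 to 6.06).

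Other secreted and matrix genes were higher as well. Fn1, fibronectin, was at 192 CPM in Apln cells and 50.04 CPM in other BEC cells. Lgals1, the glycan-binding galectin gene, was at 1058 CPM in Apln cells and 385 CPM in other BEC cells. The cytokine gene Mif was at 438 CPM in Apln cells and 172 CPM in other BEC cells. C1qtnf9, a secreted protein of the C1q and TNF related family, was at 548 CPM in Apln cells and 217 CPM in other BEC cells.

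Metabolic and intracellular genes made up much of the remainder. Slc16a3, a lactate exporter, was 5.15-fold higher (4.73 to 5.61) at 88.9 CPM in Apln cells and 17.3 CPM in other BEC cells. Ankrd37, a known target of hypoxia-inducible factors, was 4.46-fold higher (4.20 to 4.74) at 157 CPM in Apln cells and 35.3 CPM in other BEC cells. Fhl2, a LIM-domain cofactor, was 7.61-fold higher (6.74 to 8.62) and AA467197 5.45-fold higher (5.21 to 5.69). Trp53i11 had a median of 786 CPM over Apln cells and 105 CPM over other BEC cells. The sulfotransferase Chst1, the transporter Slc16a6, Prr5, the metallothionein Mt2, Maged1, the mitochondrial sulfur dioxygenase Ethe1 and the kinase Dapk2 were between 2.55-fold and 3.53-fold higher.

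**Figure D2:**
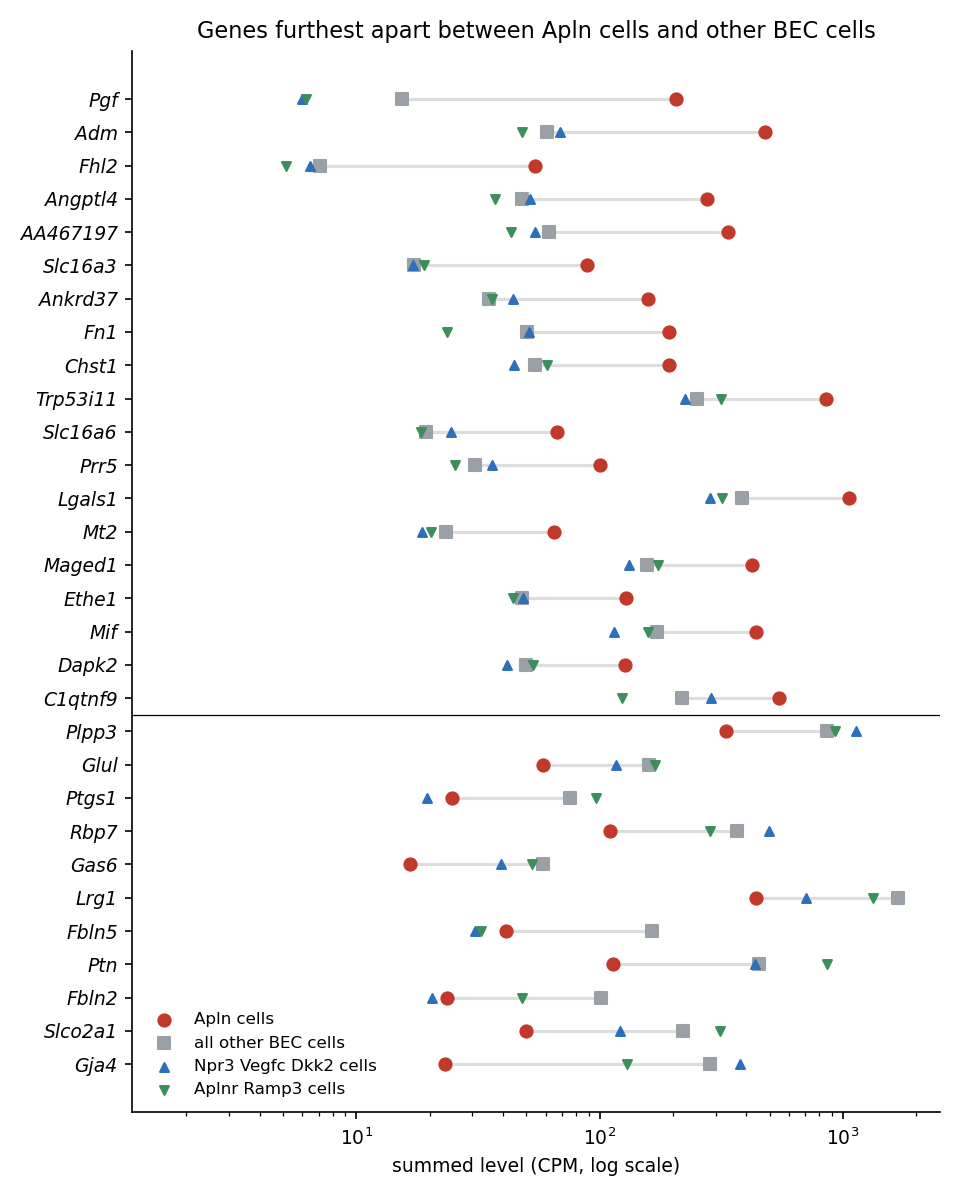
Summed level (CPM, log axis) of 19 of the 20 genes furthest above and 11 of the 12 furthest below other BEC cells, in Apln cells, all other BEC cells, Npr3 Vegfc Dkk2 cells and Aplnr Ramp3 cells, 1 value per class. The 19 upper genes lie highest in Apln cells, from Pgf (207 CPM against 15.3 CPM) to C1qtnf9 (548 CPM against 217 CPM).

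The promoters of 4 of these genes are printed because Apln chose the cells and Adm, Ankrd37 and Slc16a3 are oxygen-responsive genes that were higher with it. Each is the RefSeq window of 300 bases (build GRCm38.p6), 250 before and 50 after the annotated start, read 5′ to 3′ on the gene's strand. Capitals mark the letters ACGTG or GCGTG, the core to which hypoxia-inducible factors bind, on either strand (CACGT or CACGC on the other strand), with matches allowed to overlap.
Apln: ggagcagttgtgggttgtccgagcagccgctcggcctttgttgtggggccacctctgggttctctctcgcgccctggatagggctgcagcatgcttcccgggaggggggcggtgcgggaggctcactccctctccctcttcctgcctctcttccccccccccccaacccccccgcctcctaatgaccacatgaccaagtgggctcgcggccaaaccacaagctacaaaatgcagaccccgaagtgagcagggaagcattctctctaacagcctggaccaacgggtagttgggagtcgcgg
Adm: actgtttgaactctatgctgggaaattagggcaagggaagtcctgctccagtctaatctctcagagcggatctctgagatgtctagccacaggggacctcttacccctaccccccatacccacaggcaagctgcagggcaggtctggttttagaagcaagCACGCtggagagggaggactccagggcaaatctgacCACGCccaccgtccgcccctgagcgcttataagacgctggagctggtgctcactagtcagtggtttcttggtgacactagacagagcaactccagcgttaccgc
Ankrd37: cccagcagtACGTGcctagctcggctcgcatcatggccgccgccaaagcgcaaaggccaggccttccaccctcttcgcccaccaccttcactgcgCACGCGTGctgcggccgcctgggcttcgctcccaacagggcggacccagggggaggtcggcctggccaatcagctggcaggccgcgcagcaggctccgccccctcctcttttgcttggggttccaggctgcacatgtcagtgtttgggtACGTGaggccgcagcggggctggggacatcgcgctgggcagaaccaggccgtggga
Slc16a3: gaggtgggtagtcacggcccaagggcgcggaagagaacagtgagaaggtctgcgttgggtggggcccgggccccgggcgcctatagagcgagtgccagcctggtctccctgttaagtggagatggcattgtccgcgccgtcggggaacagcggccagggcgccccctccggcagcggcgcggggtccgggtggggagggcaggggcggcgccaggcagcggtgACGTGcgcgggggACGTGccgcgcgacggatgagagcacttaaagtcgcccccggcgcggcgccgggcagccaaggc
They lie at chrX:48034804-48035103 (minus strand), chr7:110627407-110627706 (plus strand), chr8:45999801-46000100 (minus strand) and chr11:120948817-120949116 (plus strand). The Apln window held no match, that of Adm 2, that of Ankrd37 4 and that of Slc16a3 2. Of the 20 higher genes 15 had a window in the table and 10 of the 15 held a match in at least 1 window; of the 12 lower genes it was 4 of 11. Among all 27025 genes with a window 46.7% held a match, and among all 32851 windows 43.8%. A match is a string of letters and no measured binding.

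The label tip-like was compared with 20 markers of tip cells other than Apln, and the values go with it in part. The markers were chosen with earlier results of these data known, so the comparison describes and does not test. Pgf and Adm are also counted in the VEGF and hypoxia lists. At 10 CPM or more in the higher class, 5 of the 20 were at least 2-fold higher in Apln cells and 0 lower, against 1.41% and 2.2% of 7513 genes, the shares against which the list counts in the following paragraphs stand as well. They were Pgf, Adm, Chst1 (192 CPM against 54.4 CPM), Trp53i11 (852 CPM against 251 CPM) and Angpt2 (1382 CPM against 574 CPM), the antagonist ligand of the receptor Tek. The list median was a log2 ratio of 0.37, where the median of all genes was -0.04. Other defining markers were higher in another class. Esm1, an endothelial proteoglycan, was at 2234 CPM in Apln cells and 1426 CPM in other BEC cells, but at 3066 CPM in Npr3 Vegfc Dkk2 cells. Dll4, the Notch ligand of tip cells, was at 265 CPM in Apln cells, 243 CPM in other BEC cells and 433 CPM in Npr3 Vegfc Dkk2 cells. Unc5b, a netrin receptor, was at 61.4 CPM in Apln cells, 63.1 CPM in other BEC cells and 128 CPM in Npr3 Vegfc Dkk2 cells. Igfbp3 was at 6508 CPM in Apln cells, 5555 CPM in other BEC cells and 10645 CPM in Npr3 Vegfc Dkk2 cells.

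Over the 6 classes, 11 of the 20 tip markers were highest in Apln cells, 7 in Npr3 Vegfc Dkk2 cells and 2 in Aplnr Ramp3 cells. The same split over all genes is not given here, so these counts are a description only. The summed level of the 20 was 14662 CPM in Apln cells, 10394 CPM in other BEC cells and 17972 CPM in Npr3 Vegfc Dkk2 cells, of which Igfbp3 and Esm1 are a large part. The remaining markers Pdgfb, Cxcr4, Nid1, Nid2, Plaur, Robo4, Mcam, Lamb1, Lxn, Marcksl1 and Pcdh17 had log2 ratios between -0.22 (Pcdh17) and 0.91 (Cxcr4). The cells are therefore called Apln cells here.

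Hypoxia genes lay above other BEC cells, though not all of them. Of 11 measured genes 4 were at least 2-fold higher and 0 lower, with a median log2 ratio of 0.65. They were Adm, Ankrd37, the prolyl hydroxylase Egln3 at 32.3 CPM in Apln cells and 2.11 CPM in other BEC cells, and the mitophagy gene Bnip3 at 44.4 CPM in Apln cells and 10.7 CPM in other BEC cells. Ndrg1 was at 158 CPM in Apln cells and 156 CPM in other BEC cells, and Ddit4 at 71.3 CPM and 106 CPM, so the list did not move as a block. Summed over the list the level was 1325 CPM in Apln cells and 619 CPM in other BEC cells, and 75.9% of Apln cells lay above the median of other BEC cells. Vegfa, Car9 and Kdm3a were below 10 CPM in both classes.

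Glycolysis genes were all on the same side. Each of 15 measured genes was above a ratio of 1, 3 were at least 2-fold higher, and the median log2 ratio was 0.79. The glucose transporter Slc2a1 was at 108 CPM in Apln cells and 52.8 CPM in other BEC cells, 2.04-fold higher (1.92 to 2.17). Tpi1, triose phosphate isomerase, was at 404 CPM in Apln cells and 166 CPM in other BEC cells. Pyruvate kinase Pkm was at 2067 CPM in Apln cells and 1080 CPM in other BEC cells, and lactate dehydrogenase Ldha at 1177 CPM in Apln cells and 960 CPM in other BEC cells. The list sum was 7779 CPM in Apln cells and 4786 CPM in other BEC cells. Nuclear genes of oxidative phosphorylation gave a contrast, with 0 of 13 past 2-fold and sums of 6840 CPM in Apln cells and 6956 CPM in other BEC cells.

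**Figure D3:**
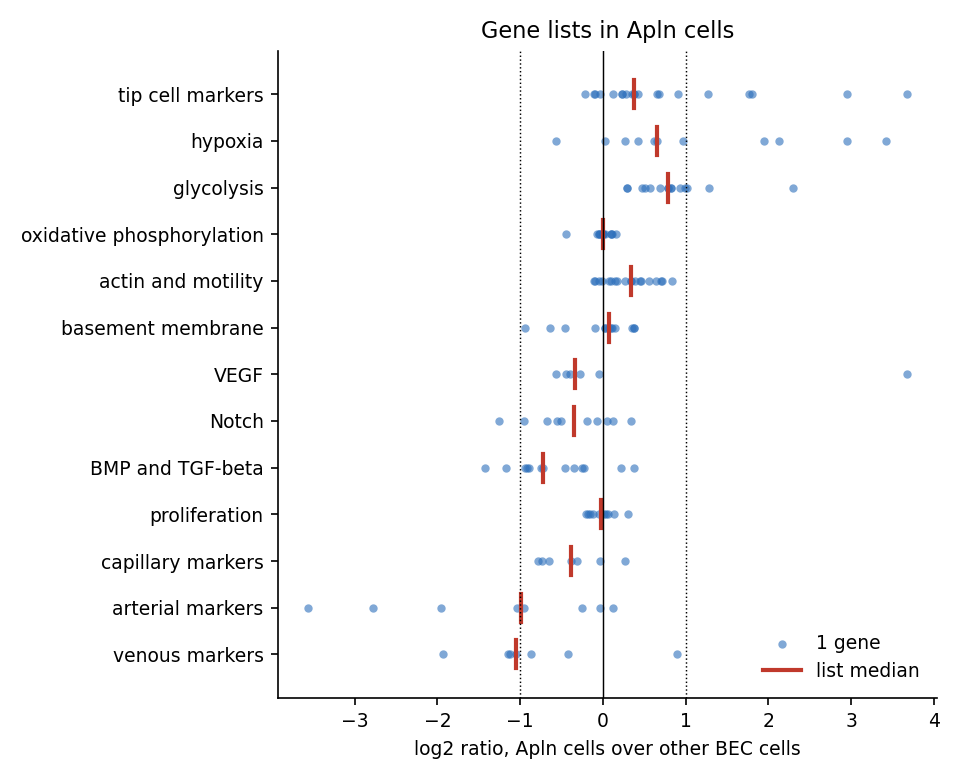
log2 ratio of Apln cells over other BEC cells (horizontal axis) for the genes of 13 lists at 10 CPM or more, 1 point per gene, with the list median in red and dotted lines at a 2-fold ratio. Medians run from 0.79 for glycolysis to -1.05 for venous markers.

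Receptors of these growth factors had ratios below 1. Kdr, the main VEGF receptor, was at 288 CPM in Apln cells and 427 CPM in other BEC cells, and Flt1, which binds Pgf, at 941 CPM in Apln cells and 1238 CPM in other BEC cells. Of 6 VEGF genes Pgf alone passed 2-fold and the other 5 had a ratio below 1. Of 4 measured genes of the angiopoietin-Tie system, Angpt2 was at least 2-fold higher and Tek lower, at 19.4 CPM in Apln cells and 47.0 CPM in other BEC cells. Aplnr, the receptor of apelin and a scoring gene of another class, was at 225 CPM in Apln cells and 403 CPM in other BEC cells. Kitl, the ligand of Kit, was at 39.2 CPM in Apln cells and 50.3 CPM in other BEC cells, and Tnfsf9, the ligand of Tnfrsf9, was below 10 CPM in both. In the TNF receptor family 0 of 11 other genes passed 2-fold in either direction.

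Most genes of Notch and BMP signalling had ratios below 1. Of 10 measured Notch genes 7 were below 1 and 3 above. Of the 10, 0 were at least 2-fold higher and 1 lower, the glycosyltransferase Lfng at 13.8 CPM in Apln cells and 34.5 CPM in other BEC cells. The list median was -0.35, where that of all genes was -0.04. The Notch sum was 1190 CPM in Apln cells, 1846 CPM in Npr3 Vegfc Dkk2 cells and 1623 CPM in arterial cells. It was 1168 CPM in Aplnr Ramp3 cells, 1100 CPM in unassigned cells and 670 CPM in venous cells, so Apln cells were not the lowest class. The target Hey1 was at 81.1 CPM in Apln cells and 157 CPM in other BEC cells, 1.94-fold lower (1.82 to 2.06), whereas Hes1 was at 269 CPM in Apln cells and 212 CPM in other BEC cells. Of 13 genes of BMP and TGF-beta signalling, 11 had a ratio below 1 and 2 were at least 2-fold lower, Smad6 and Id2, with a median of -0.72. Smad6, an inhibitor of BMP signalling, was at 11.1 CPM in Apln cells and 31.4 CPM in other BEC cells. The target Id1 was at 343 CPM in Apln cells and 660 CPM in other BEC cells, and the coreceptor Eng at 1098 CPM and 1848 CPM. Only 17.0% of Apln cells lay above the median of other BEC cells for the sum of this list.

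Other growth factor and guidance genes were mixed. Of 11 growth factor and receptor genes 2 were at least 2-fold higher, Ctgf (33.3 CPM in Apln cells, 8.68 CPM in other BEC cells) and Fgfr1 (59.9 CPM and 27.3 CPM), and Insr was lower (59.2 CPM and 124 CPM). Of 10 guidance genes 0 were higher and 2 lower, the ephrin ligand Efnb2 (38.3 CPM in Apln cells, 79.5 CPM in other BEC cells) and its receptor Ephb4 (15.3 CPM and 32.8 CPM). None of 5 Wnt genes passed 2-fold, and all 5 had a ratio below 1.

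Structural genes differed little, with actin genes as the broadest shift. Of 19 genes of actin and motility 0 passed 2-fold, yet 15 had a ratio above 1, with a median of 0.34 and sums of 39179 CPM in Apln cells and 29202 CPM in other BEC cells. Tmsb10, an actin-binding thymosin, was at 3426 CPM in Apln cells and 2081 CPM in other BEC cells, and Fscn1, the filopodial bundling protein fascin, at 887 CPM in Apln cells and 544 CPM in other BEC cells. In the basement membrane list 0 of 13 passed 2-fold, with Col4a1 at 894 CPM in Apln cells and 832 CPM in other BEC cells. Collagen-processing genes (0 of 8 past 2-fold) and integrins (0 of 9 higher, 1 lower, Itgb4 at 5.75 CPM in Apln cells and 20.003 CPM in other BEC cells) had medians of 0.18 and 0.08. Of 12 proteases and inhibitors 1 was higher and 1 lower, the matrix metalloprotease Mmp2 (2.102 CPM in Apln cells, 22.9 CPM in other BEC cells). Of 4 IGF binding proteins Igfbp5 was lower, at 7.36 CPM in Apln cells and 42.8 CPM in other BEC cells. Of 12 junction genes Gja4 was lower and 0 higher, while the claudin Cldn5 was at 760 CPM in Apln cells and 414 CPM in other BEC cells.

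The genes lower in Apln cells were led by a connexin and included transport, matrix and signalling genes. Gja4, an arterial connexin, was at 23.1 CPM in Apln cells and 284 CPM in other BEC cells, 12.3-fold lower (11 to 13.7). Slco2a1, a prostaglandin transporter, was 4.42-fold lower (4.09 to 4.77) at 49.6 CPM in Apln cells and 219 CPM in other BEC cells. The matrix genes Fbln2 and Fbln5 were 4.27-fold (3.83 to 4.78) and 3.96-fold (3.65 to 4.32) lower. Fbln5 was mainly a gene of the arterial and venous classes, and Apln cells at 41.3 CPM were above Aplnr Ramp3 cells at 32.7 CPM and Npr3 Vegfc Dkk2 cells at 30.7 CPM. Lrg1, an angiogenic modulator of TGF-beta signalling, was 3.82-fold lower (3.72 to 3.92) at 439 CPM in Apln cells and 1678 CPM in other BEC cells. The growth factor gene Ptn, the TAM receptor ligand Gas6, the retinol-binding gene Rbp7, the cyclooxygenase Ptgs1, glutamine synthetase Glul and the lipid phosphatase Plpp3 were between 2.59-fold and 4.001-fold lower. Of the 47 lower genes not used for scoring, 32 were lower in Apln cells than in each of the 5 other classes. They were picked as lower than the pool of these classes, so the count follows in part from the choice. The same count over all genes is not given here. Gja4 and Fbln5 are also counted among the arterial and Lrg1 among the venous markers, whose levels follow in part from the rule.

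Subtype markers of arteries and veins were mostly lower. Of 8 arterial markers besides the scoring genes 4 were at least 2-fold lower and 0 higher (median -0.99), and of 7 venous markers 4 were lower and 0 higher (median -1.05). As the rule sends cells with high arterial or venous scores elsewhere, these counts follow in part from it. Of 7 capillary markers 0 passed 2-fold (median -0.38), with the diaphragm gene Plvap at 3364 CPM in Apln cells and 5285 CPM in other BEC cells. Fatty acid uptake genes had 0 higher and 1 lower of 9, the lipase gene Lpl at 1.12 CPM in Apln cells and 10.7 CPM in other BEC cells.

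Cell state and immune lists stayed mostly within 2-fold. Cycling cells, with at least 2 UMIs of proliferation genes after thinning, were 30.3% of Apln cells (26.4 to 34.3%) and 27.3% of other BEC cells (25.6 to 29.1%), and 64.7% and 59.4% before thinning. The 10 proliferation genes had a median of -0.02, and 0 passed 2-fold. Of 17 immediate-early and stress genes 0 were higher and 1 lower, Nr4a1, with 15 of 17 below a ratio of 1. Unfolded protein response genes (0 of 10), endothelial transcription factors (0 of 16), interferon genes (0 of 11), MHC class I genes (0 of 8) and immune checkpoint genes (0 of 4) had none past 2-fold. Of 7 leukocyte adhesion genes Icam1 was lower, at 46.9 CPM in Apln cells and 105 CPM in other BEC cells. Of 7 chemokine genes and receptors 2 were higher, the chemokine Ccl2 (32.8 CPM in Apln cells, 15.9 CPM in other BEC cells) and the scavenging receptor Ackr3 (72.9 CPM and 29.0 CPM).

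Npr3 Vegfc Dkk2 cells and Aplnr Ramp3 cells were set beside the Apln cells, in comparisons that share the Apln cells. Over Npr3 Vegfc Dkk2 cells 67 of 3191 genes (2.1%) were at least 2-fold higher and 75 (2.35%) lower, and over Aplnr Ramp3 cells 67 of 3192 (2.1%) and 59 (1.85%). Pgf was at 207 CPM in Apln cells, 5.95 CPM in Npr3 Vegfc Dkk2 cells and 6.20 CPM in Aplnr Ramp3 cells. Angpt2 was at 1382 CPM in Apln cells, 1188 CPM in Npr3 Vegfc Dkk2 cells and 383 CPM in Aplnr Ramp3 cells, so it set Apln cells apart from the Aplnr Ramp3 cells and hardly from the Npr3 Vegfc Dkk2 cells. Hypoxia sums were 1325 CPM in Apln cells, 569 CPM in Npr3 Vegfc Dkk2 cells and 584 CPM in Aplnr Ramp3 cells. With a minimum of 10 CPM, 2.42% of all genes passed 2-fold upward and 2.17% downward over Npr3 Vegfc Dkk2 cells, and 2.28% and 1.91% over Aplnr Ramp3 cells. Against these shares, 4 of 20 tip markers were higher and 1 lower than in Npr3 Vegfc Dkk2 cells, and 7 higher and 0 lower than in Aplnr Ramp3 cells. Proliferation sums were 537 CPM in Apln cells, 291 CPM in Npr3 Vegfc Dkk2 cells and 537 CPM in Aplnr Ramp3 cells, with 30.3%, 18.6% and 33.8% cycling cells.

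Apln cells varied widely among themselves along the score that chose them. They were divided by that score into a low, a middle and a high group of 184 cells each, with median z of 0.76, 1.47 and 2.62 and median depths of 22083, 21912 and 22082 UMIs. Adm was at 171, 402 and 848 CPM in the low, middle and high groups, Pgf at 47.8, 134 and 432 CPM, and Slc16a3 at 20.9, 64.3 and 179 CPM. All 3 genes were lowest in the low group and highest in the high group, and so were 18 of the 20 named higher genes. The score that divides the cells also chose them, and the genes were picked in the cells so chosen, so an order along the score is in part given by the choice and supports nothing. The low group was close to other BEC cells in the hypoxia list, at 707 CPM against 619 CPM, while the middle and high groups reached 1181 and 2067 CPM. Glycolysis sums were 5917, 6917 and 10427 CPM. The proliferation sum ran the other way, at 750, 619 and 249 CPM. The share of cells cycling after thinning was 32.6%, 33.7% and 24.5%, and so was lower only in the high group. Of the 12 lower genes 9 were highest in the low group and lowest in the high group, such as Ptgs1 at 44.6, 21.7 and 8.04 CPM.

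**Figure D4:**
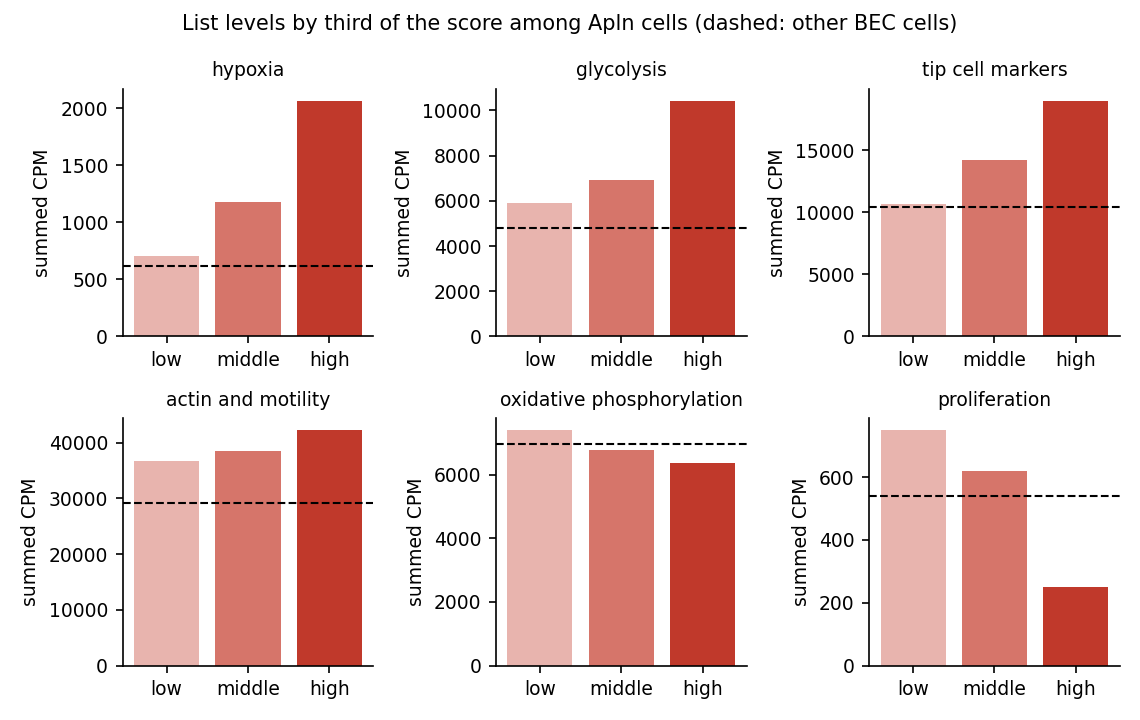
Summed level (CPM) of 6 gene lists in Apln cells of low, middle and high score, 184 cells each, with the level in other BEC cells as a dashed line. Hypoxia is at 2067 CPM in the high group, where proliferation is at 249 CPM.

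The class that came second in an Apln cell's scores went with further differences. Second was the Npr3, Vegfc and Dkk2 set in 120 Apln cells, the Aplnr and Ramp3 set in 184, the arterial set in 117 and the venous set in 131. Pgf was at 107, 89.0, 360 and 362 CPM in these groups, and Fn1 at 151, 68.4, 319 and 318 CPM. Esm1 was at 3313 CPM in the first group and 1717, 2005 and 2112 CPM in the others. The groups with an arterial or venous second score also had the higher glycolysis sums, at 8731 and 8873 CPM against 7117 and 6980 CPM. Median z was 1.43, 1.36, 1.58 and 1.56 in these groups, and median depth 26521, 24064.5, 16578 and 21452 UMIs. The part of the second score apart from these was not tested. UMIs of the arterial genes Gja5, Sema3g and Stmn2 were found in only 2.54%, 7.43% and 11.1% of Apln cells. The median arterial z of Apln cells, -0.457, was that of a cell with no UMI of these genes. A cell with no such UMI can still have the arterial set second, so that group is not read as artery-like.

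The 3 marker genes were compared with each other by leaving each out of the choice. They were picked as a set with earlier results of these data known, so the values describe and do not test. The threshold and the other marker sets were kept as they were. Chosen by Tnfrsf9 and Kit, 496 cells had 610 CPM of Apln, and the cells not chosen 181 CPM, 3.37-fold higher (3.27 to 3.47). Chosen by Apln and Kit, 642 cells had 334 CPM of Tnfrsf9, and the cells not chosen 80.02 CPM, 4.17-fold higher (4.01 to 4.34). Chosen by Apln and Tnfrsf9, 564 cells had 42.1 CPM of Kit, and the cells not chosen 12.8 CPM, 3.29-fold higher (2.95 to 3.67). In these choices 65.6%, 83.9% and 90.2% of the Apln cells were found again. Each choice shared its genes with the full set, so these shares follow in part from the rule. At equal depth of 5000 UMIs, Kit was seen in 12.7% of cells with a Tnfrsf9 UMI (10.2 to 15.6%) and 5.48% of cells without one (4.63 to 6.43%).

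Apln cells were also near each other in the remaining genes. With the 14 scoring genes left out, 50.2% of the 15 nearest cells of an Apln cell were Apln cells, which made up 17.4% of all cells. This was not particular to them. The share of neighbours of the own class was 49.1% for Aplnr Ramp3 cells and 46.7% for Npr3 Vegfc Dkk2 cells. For venous and arterial cells it was 65.3% and 34.6%. More than 50% of the neighbours were Apln cells for 271 of the 552 (49.1%) and for 64 of the other BEC cells (2.44%). The other neighbours of Apln cells were unassigned cells (22.6%), Aplnr Ramp3 cells (12.1%), Npr3 Vegfc Dkk2 cells (10.8%), venous cells (2.89%) and arterial cells (1.45%). No Apln neighbour was found for 22 Apln cells.

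The LEC sort held 101 blood endothelial cells, from libraries that the marker scores and the named genes did not use. They were scored with the means and spreads of the BEC cells, and none shared a barcode with the BEC sort. The rule called 21 of them Apln cells (20.8%, 13.4 to 30.01%), with a median depth of 24250 UMIs against 16709.5 UMIs in the other 80. With a minimum of 50 CPM in either class 3520 genes could be compared, of which 178 (5.06%) reached a 2-fold higher level in the 21 cells and 269 (7.64%) a lower one. A ratio above 1 was found for 48.4% of the 3520. All 20 genes chosen as higher in the BEC sort had a ratio above 1 and 18 were at least 2-fold higher (median log2 ratio 1.74). All 12 chosen as lower had a ratio below 1 and 9 were at least 2-fold lower (median -2.79). Markers of other cell types moved with the 21 cells too. The summed lymphatic markers were at 657 CPM in the 21 cells and 300.5 CPM in the other 80, with 5 of the 6 above a ratio of 1, such as Mmrn1 at 142 CPM and 43.3 CPM and Lyve1 at 293 CPM and 129 CPM. In the BEC sort the lymphatic sum was lower in Apln cells. Macrophage markers summed to 45.5 CPM in the 21 cells (25 UMIs) and 4.66 CPM in the other 80 (7 UMIs), from Cd68 and Lyz2, while Mrc1, Csf1r, Adgre1 and C1qa were at 0 in the 21 cells. Their part in the results was not tested.

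Single genes rest on few cells here. Adm was at 718 CPM in the 21 cells and 49.97 CPM in the other 80, 14.4-fold higher (11.2 to 18.6), with a UMI in 14 of the 21. Angptl4 was at 550 CPM in the 21 cells and 41.3 CPM in the other 80, 13.3-fold higher (10.1 to 17.8). Pgf was at 470 CPM in the 21 cells and 54.0 CPM in the other 80, 8.71-fold higher (6.76 to 11.3), with UMIs in 9 of the 21. Maged1, at 162 CPM and 155 CPM, did not reach 2-fold. Slco2a1 was at 14.6 CPM in the 21 cells and 256 CPM in the other 80, and Gja4 at 21.9 CPM and 244 CPM. Of the scoring genes, Kit rested on 5 UMIs in the 21 cells and 6 in the other 80, a ratio of 2.28 (0.550 to 8.96).

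**Figure D5:**
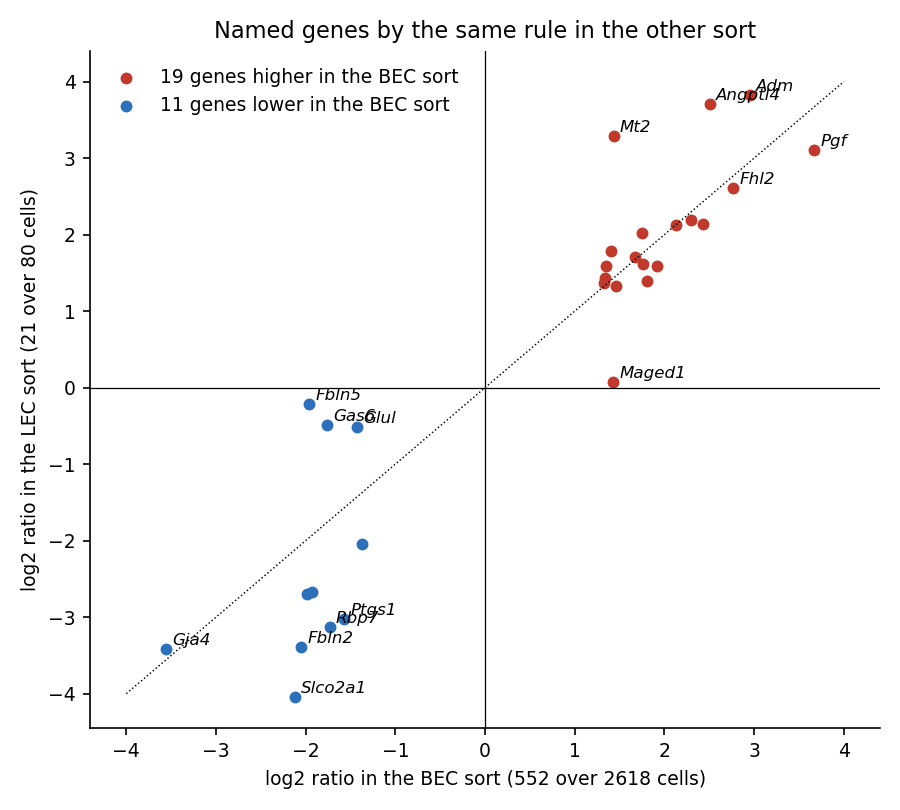
log2 ratio of Apln cells over other blood endothelial cells in the BEC sort (horizontal axis, 552 over 2618 cells) and in the LEC sort (vertical axis, 21 over 80 cells) for 19 of the 20 higher and 11 of the 12 lower genes of the BEC sort; genes far from the rest or from the dotted line of equal ratios are named. All 30 lie on the same side of 0 in both sorts, with Maged1 near 0 in the LEC sort.

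Markers of other cell types differed by list in the BEC sort. All 7 T and NK cell markers had 0 UMIs in Apln cells, which allows up to 0.210 CPM for each, and 51 UMIs in other BEC cells. All 6 mast cell markers had 0 UMIs in Apln cells, where Kit is otherwise a mast cell gene, and 12 in other BEC cells. Of the pan-leukocyte list Ptprc, Cd52 and Rac2 were at 0 in Apln cells, and the sum was 22.1 CPM in Apln cells and 4.48 CPM in other BEC cells, of which Coro1a was 20.5 CPM and 2.87 CPM; its part in the results was not tested. Mural sums were 274 CPM in Apln cells and 230 CPM in other BEC cells, and 64.9% of Apln cells lay above the median of other BEC cells. Of the 4 mural markers measured at 10 CPM or more, Acta2 (43.6 CPM in Apln cells, 23.4 CPM in other BEC cells), Kcnj8 (138 CPM and 88.8 CPM) and Abcc9 (52.5 CPM and 42.8 CPM) had ratios above 1, and Tagln (28.8 CPM and 60.6 CPM) was lower. Cspg4 was at 0 in Apln cells, and the part of these markers in the results was not tested. Lymphatic sums were 55.6 CPM in Apln cells and 66.9 CPM in other BEC cells, mostly Flt4. Melanocytic sums were 23.6 CPM in Apln cells and 26.7 CPM in other BEC cells, and fibroblast sums 5.82 CPM and 7.85 CPM. Macrophage (5.54 CPM and 4.46 CPM), platelet (14.2 CPM and 28.5 CPM) and keratinocyte (10.0 CPM and 10.3 CPM) sums were low in both. The 8 pan-endothelial markers all stayed within 2-fold, at sums of 5445 CPM in Apln cells and 6454 CPM in other BEC cells.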

How the data were processed

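The authors deposited 1 matrix of raw UMI counts per gene symbol and cell, with 28692 symbols and 7635 cells. Cell Ranger 2.1.1 and mm10, the mouse build, are named in the submitters' processing notes; how cells were filtered was not stated. The cell names give the sort and no library.

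The marker sets, gene lists and comparisons were chosen with earlier results of these data known. Counts were summed per class, scaled to CPM and compared as log2 ratios with a pseudocount of 1 CPM; at least 2-fold was called at 50 CPM or more in the higher class (10 CPM for lists). No test was possible, and intervals at 95% cover counting error only; UMIs of a gene in 1 cell are not independent. At the depth of the Apln cells 3 UMIs are 0.210 CPM, and 0.0542 CPM in the other BEC cells.

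Named genes were the 20 highest and 12 lowest log2 ratios with a UMI in at least 25% of cells of the higher class and no cell with over 10% of its UMIs there, without scoring, mitochondrial, ribosomal, haemoglobin and unnamed model genes. The tip cell list and the 4 most abundant genes of each other list were also named. Other list genes, including those past 2-fold, were named after their values were seen. The rule's counts include 2 genes that are not reported here by name. Scoring genes were left out of list counts. Cells thinned to 5000 UMIs gave the cycling shares. Neighbours came from 30 principal components of 2000 variable genes. Blood endothelial cells of the LEC sort had at least 10 UMIs of Flt1, Nrp1, Cd93 and Esam and more of these than of Lyve1, Pdpn, Mmrn1 and Reln; lymphatic cells the reverse. Positions came from GENCODE M21, in which 27337 symbols matched. The calculation of the ratios was run on simulated pooled counts with known folds. These had no spread between cells and no choice of cells by score, so the run does not bear on either. Software was Python 3.11.15, numpy 2.4.6, scipy 1.17.1, pandas 2.3.3 and matplotlib 3.10.9.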

Additional observations from a re-analysis of the deposited data

How the results depend on the processing

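No paired analysis was possible because each sort was 1 sample whose libraries could not be separated, so no replicate could be left out either. The share of Apln cells was 17.4%. It was 21.3% with a threshold of z over 0, 12.2% with z over 1, 15.6% without Apln in the marker set and 20.3% without Tnfrsf9. In 4 further settings (scores from thinned cells, no Kit, a bound of 5 UMIs, no cells above the 95th percentile of UMIs) it stayed within the counting interval.

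The count of genes at least 2-fold higher (48) and lower (53) depended most on the minimum level. It was 106 and 165 at a minimum of 10 CPM, and 173 and 358 with no minimum. Without Apln in the marker set 35 genes were lower, and against cells assigned to the other 4 sets only, 80 were lower. In the remaining settings, which included leaving out cycling cells, cells under 1% mitochondrial UMIs or cells above the 95th percentile of UMIs, both counts stayed within 1.5 times, at 34 to 62 higher and 38 to 72 lower. The alternative without cells whose barcode occurs in both sorts was added after the data were seen. With median-of-ratios size factors the median log2 ratio of all genes was 0.01, against -0.04 with CPM, and 52 genes were higher and 41 lower. Single genes were followed for the scoring and ranked genes, the tip list and the most abundant genes of each other list. Of these, 56 were at least 2-fold apart at any level. Only Col1a1, with 39 UMIs in Apln cells and 24 in other BEC cells, changed sign, in 2 settings. Genes named after their values were seen, such as Egln3, Bnip3, Slc2a1 and Tpi1, were not followed one by one. List medians that changed sign in at least 1 setting were those of guidance, oxidative phosphorylation, junctions, MHC class I, unfolded protein response and proliferation, the last between -0.54 and 0.32. The hypoxia median ran from 0.46 to 0.92, glycolysis from 0.56 to 0.89, tip cell markers from 0.33 to 0.47 and BMP and TGF-beta from -0.80 to -0.55. Counting depth limits genes near the floor of 3 UMIs, and the pool of animals leaves the spread between tumors unknown.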

Other observations

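Chga, the granule protein chromogranin A of endocrine cells, was chosen after its values were seen. It was at 274 CPM in Apln cells and 46.2 CPM in other BEC cells, 5.94-fold higher (5.65 to 6.25). Of its 2557 UMIs in other BEC cells, 2012 were in unassigned cells, which were at 137 CPM. The Npr3 Vegfc Dkk2, Aplnr Ramp3, arterial and venous cells were at 11.3, 17.7, 8.76 and 10.7 CPM. Chga did not rise steadily with the score, at 271, 324 and 229 CPM in the low, middle and high groups of Apln cells. Its UMIs were found in 22.3% of Apln cells and 12.1% of other BEC cells, or 11.4% and 4.81% after thinning to 5000 UMIs. A single Apln cell held 416 UMIs, 10.6% of the class total. Among Apln cells Chga was at 497 CPM with an arterial and 465 CPM with a venous second score, against 37.4 CPM with the Npr3, Vegfc and Dkk2 set and 188 CPM with the Aplnr and Ramp3 set second. An arterial second score does not require a UMI of an arterial gene.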
